A study of Mus musculus with 4 samples.

Results

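A set of 2730 promoters in large peritoneal macrophages (LPMs) carried an ATAC-seq peak in 3 of 4 libraries and had none in the library with the fewest peaks. They were chosen from 70744 joined regions, of which 12011 lay in promoters. ATAC-seq marks open chromatin, since the Tn5 transposase inserts adaptors where DNA is accessible. Overlapping peaks, by 1 bp or more, were joined across the 4 libraries. A joined region became a member when it held a peak in WT1, KO1 and KO2, none in WT3, and had its midpoint at most 1 kb before or 200 bp after a transcription start site (TSS) of a RefSeq protein-coding (NM) transcript on mm10. The peak calls of all 4 libraries thus chose the members, and the absence of WT3 peaks in them is no result. The members lay nearest to the TSSs of 2624 genes, 100 of which had more than 1 member.

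WT1 and WT3 are the RXRabfl/fl replicates 1 and 3, from littermates that carry floxed alleles of Rxra and Rxrb and no Cre. KO1 and KO2 are the LysMCre+RXRabfl/fl replicates 1 and 2, in which Cre expressed from the myeloid LysM locus deletes both receptors. All groups carried the floxed alleles on a C57BL/6 background, were 9 weeks old and gave 40000 sorted LPMs per library in library batch 1. The study left out ATAC-seq samples that did not cluster with their group, so the spread between libraries may be understated. Nothing in the labels says whether a library pooled several mice.

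RXRα and RXRβ are nuclear receptors that bind DNA as heterodimers with partners such as the retinoic acid, liver X and PPAR receptors. LPMs are resident macrophages of the serous cavities whose identity rests on the transcription factor GATA6. A promoter is read in ATAC-seq as a nucleosome-free stretch just upstream of the TSS, and housekeeping promoters in CpG islands are open in most cell types. A peak call needs enough reads over the local background, so whether a promoter is called depends on the library as well as on the chromatin.

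WT3 held 16097 peaks, against 38048 in WT1, 65421 in KO1 and 55581 in KO2. The lowest local background, which follows the number of tags kept, was 1.06 tags per 200 bp in WT3, 1.08 in KO2, 1.33 in KO1 and 1.97 in WT1, so WT3 had the fewest peaks at a background close to that of KO2. Of the 6 LPM markers, WT3 had a promoter peak at Gata6, Icam2, Timd4, Cd93 and F5, and the other 3 libraries had these and Selp. Among the macrophage markers reported here, Adgre1 and Spi1 had a promoter peak in every library, Itgam in KO1 and KO2, and Csf1r and Cd14 in none within this window. Promoter peaks at Ebf1, Tcf7, Gata2, S100a8 and Csf3r, which are 1 of 6 B-cell, 1 of 6 T-cell, 1 of 5 mast-cell and 2 of 6 neutrophil markers, were called in WT1, KO1 and KO2 and not in WT3, so all 5 are members. Of the 6 markers of small peritoneal and monocyte-derived macrophages, 1 had a promoter peak in WT3, 3 in WT1, 5 in KO1 and 4 in KO2. Cd3e, Kit and Ly6g, which define T cells, mast cells and neutrophils more closely, had no promoter peak in any library, and neither did the 5 mesothelial markers. The Rxra promoter was called in all 4 libraries, with fold enrichments of 6.43 in WT1, 5.77 in WT3, 10.4 in KO1 and 7.27 in KO2. The main Rxrb promoter region had 8.36, 5.71, 7.17 and 4.79 in the same order. A floxed exon lies within the gene and need not change the promoter, so these values do not check the deletion.

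The sequences of 10 members follow, each the part of the peak just upstream of the TSS, printed 5′ to 3′ on the strand of the gene from the RefSeq mm10 assembly and ending at the base before the TSS. Capitals mark, on either strand, the letters of the motifs described further on. The first 4 belong to members with a higher signal in WT1, the promoters of the mRNA export factor Chtop, of the lipid carrier Apoe, of the synaptic vesicle protein Synpr and of the tetraspanin Tspan4.
Chtop (chr3:90509499-90509658, minus strand): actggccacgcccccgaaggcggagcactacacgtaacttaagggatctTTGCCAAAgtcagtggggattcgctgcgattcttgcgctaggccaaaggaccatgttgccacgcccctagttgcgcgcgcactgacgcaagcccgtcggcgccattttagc
Apoe (chr7:19699189-19699346, minus strand): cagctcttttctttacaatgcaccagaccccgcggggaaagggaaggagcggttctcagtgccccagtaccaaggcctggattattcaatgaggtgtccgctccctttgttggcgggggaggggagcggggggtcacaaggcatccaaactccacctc
Synpr (chr14:13284639-13284779, plus strand): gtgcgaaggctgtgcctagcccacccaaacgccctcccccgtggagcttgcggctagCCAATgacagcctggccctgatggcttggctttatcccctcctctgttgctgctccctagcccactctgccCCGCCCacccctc
Tspan4 (chr7:141476247-141476379, plus strand): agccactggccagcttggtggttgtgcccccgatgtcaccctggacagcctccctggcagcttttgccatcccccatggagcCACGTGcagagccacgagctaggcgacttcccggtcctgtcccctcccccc

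The next 4 belong to members with a higher signal in KO1 and KO2, the promoters of the kelch protein Klhdc8b, the protocadherin Pcdh10, the olfactory receptor Olfr658 and the protein kinase A inhibitor Pkib. The Pcdh10 and Pkib promoters are CpG-rich, and the upstream stretches of Klhdc8b, Olfr658 and Pkib hold none of the letters searched.
Klhdc8b (chr9:108452802-108452961, minus strand): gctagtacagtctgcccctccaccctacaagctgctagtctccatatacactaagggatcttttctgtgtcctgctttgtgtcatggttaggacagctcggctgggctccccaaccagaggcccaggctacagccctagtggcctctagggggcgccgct
Pcdh10 (chr3:45378261-45378397, plus strand): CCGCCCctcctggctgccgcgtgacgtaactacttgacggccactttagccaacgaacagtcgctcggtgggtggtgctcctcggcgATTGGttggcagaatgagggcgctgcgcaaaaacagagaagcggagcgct
Olfr658 (chr7:104647306-104647465, minus strand): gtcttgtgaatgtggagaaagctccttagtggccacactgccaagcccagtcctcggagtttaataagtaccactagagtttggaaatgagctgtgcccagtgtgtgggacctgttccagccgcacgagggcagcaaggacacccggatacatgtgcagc
Pkib (chr10:57631859-57631980, plus strand): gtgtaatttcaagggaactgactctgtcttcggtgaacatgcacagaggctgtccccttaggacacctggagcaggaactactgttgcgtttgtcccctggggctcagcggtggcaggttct

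The last 2 had the highest mean log2 fold enrichment of all members. Gm14325 is a predicted gene, and Lzts1 encodes a leucine zipper tumour suppressor whose promoter holds the GC box letters 3 times.
Gm14325 (chr2:177840337-177840496, minus strand): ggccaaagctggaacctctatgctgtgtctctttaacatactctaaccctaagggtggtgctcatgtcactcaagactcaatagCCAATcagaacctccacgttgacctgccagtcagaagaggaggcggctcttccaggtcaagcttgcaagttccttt
Lzts1 (chr8:69184199-69184358, minus strand): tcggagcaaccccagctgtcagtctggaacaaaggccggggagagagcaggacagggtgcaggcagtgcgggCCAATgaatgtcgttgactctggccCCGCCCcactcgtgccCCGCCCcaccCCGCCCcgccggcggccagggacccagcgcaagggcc

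The members were promoters of intermediate signal. Fold enrichment, the ratio of the pileup of extended reads at the summit to the local background with 1 added to both, had a median of 7.13 in WT1, 10.1 in KO1 and 7.78 in KO2. The 6885 promoters called in all 4 libraries had medians of 16.7, 16.2 and 12.8 in these libraries and of 9.06 in WT3. The pileup itself had medians of 32 extended reads in WT1, 46 in KO1 and 31 in KO2 over the members. It had medians of 126, 118 and 72 over the promoters called in all 4, which were 26 in WT3. The WT1 pileup of the members ran from 8 to 214. Since the calls chose the members, these values describe them and are no test.

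The share of promoters with a WT3 peak rose with the WT1 pileup among the 9615 promoters called in WT1, KO1 and KO2. WT3 had a peak at 1.63% of the 615 promoters with a WT1 pileup of at most 20 and at 22.3% of the 710 promoters from 31 to 40. It had a peak at 51.6% of the 1274 from 41 to 60, at 94.5% of the 1586 from 81 to 120 and at 99.7% of the 3627 above 120. Members made up 28.4% of the 9615, against 64.8% for the same call pattern among the 23648 regions outside promoters that were called in the 3 libraries. By chromosome the share ran from 22.7% on chromosome 16 to 32.2% on chromosome 2.

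**Figure D1:**
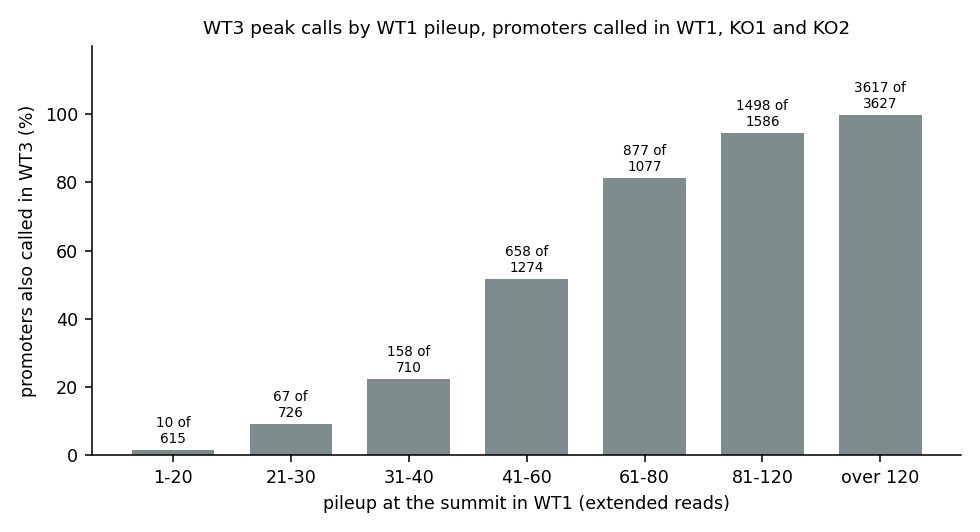
Bars give the percentage of promoters with a WT3 peak, among promoters called in WT1, KO1 and KO2, in bins of the WT1 pileup at the summit (extended reads), with the counts above each bar. The share rises from 1.63% in the lowest bin to 99.7% above 120, and members are the promoters without a WT3 peak.

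Over the promoters called in all 4, the median ratio of the WT3 to the WT1 pileup was 0.211. Multiplied by that ratio, the WT1 pileup of 1149 members (42.1%) fell below 6, the lowest pileup of any WT3 peak. For 98 members (3.59%) it reached 17, the lower quartile of WT3 pileups over the promoters called in all 4. Of these 98, 26 lay within 1 kb of a WT3 peak. The ratio comes from promoters with a WT3 peak and may be too high for the members, which were chosen to lack one. Just outside the rule, the promoters with the weakest WT3 calls were those of the LPM marker Cd93, the homeobox gene Irx2 and the SLAM family receptor Slamf8, with WT3 fold enrichments of 3.55, 3.85 and 3.88. Just inside it, the weakest call of the members was a WT1 peak at Kbtbd12, a kelch-repeat gene, with a −log10 q of 1.50 and a fold enrichment of 3.03 in WT1, 11.6 in KO1 and 5.24 in KO2.

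Some members lay beside a WT3 peak and were not without accessible chromatin in WT3. The gap to the nearest WT3 peak was 32 bp at the least and 20826 bp at the median, and 250 members (9.16%) lay within 1 kb of one. These 250 had a median local background of 7.2 tags in WT1, against 2.92 in the 2480 others, and 49.2% of them were CpG-rich against 66.7%. Of all members, 278 (10.2%) belonged to genes with another promoter region called in WT3, which leaves 2368 genes with none. The weakest members by mean fold enrichment were of this kind or close to it. Zfp36, an mRNA decay factor of the inflammatory response, had fold enrichments of 2.05 in WT1, 2.44 in KO1 and 2.05 in KO2 with a WT3 peak 1436 bp away. Kmt2e and Cables2 had WT3 peaks 174 and 128 bp away.

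The strongest members, named here and in the next paragraph, lay from 20153 bp (Nlrp1b) to 180233 bp (Gm14325) from the nearest WT3 peak. Nlrp1b lay just below the median gap of all members, 20826 bp, and the others lay above it, Asb13 and Lzts1 only slightly, at 22413 and 24414 bp. Gm14325 had fold enrichments of 21.1 in WT1, 29.8 in KO1 and 23.7 in KO2, the highest mean of the members, with the nearest WT3 peak 180233 bp away. Lzts1 had 20.7, 25.1 and 19.6. The inflammasome sensor Nlrp1b had 15.6, 26.5 and 21.7. On the centred scale used for the comparison of genotypes, WT1 lay above both KO libraries at Lzts1 and below both at Gm14325 and Nlrp1b.

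Btc, which encodes the EGF receptor ligand betacellulin, had 18.4, 25.4 and 18.2 in the same order, and the lysosomal mannosidase Manba had 19.3, 23.6 and 18.6. Ube2d1, a ubiquitin-conjugating enzyme, had 17.7, 24.5 and 18.6, and the actin-severing gelsolin Gsn had 17.3, 25.1 and 18.5. Asb13, a substrate receptor of a ubiquitin ligase, had 18, 23.8 and 18.7. None of these 8 passed the limma threshold. Gm14325 belongs to a family of near-identical zinc-finger genes, and since reads of low mapping quality were removed, its level is uncertain.

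Next, WT1 was compared with KO1 and KO2 in the members, the contrast of genotypes that the rule leaves. Log2 fold enrichment was centred on the median of each library, and a difference is given as WT1 minus the mean of KO1 and KO2. WT3 has no value in any member, so limma fitted 1 library against 2 over all 33263 regions called in WT1, KO1 and KO2. The SEs and p values rest on the spread between KO1 and KO2, shrunk by eBayes towards a value common to all regions. The fit thus assumes that WT1 varies like KO1 and KO2. What is particular to WT1 and what goes with genotype cannot be told apart. A region was called when the Benjamini-Hochberg adjusted p was under 0.05 and the difference past 1.

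Relative to all regions tested, the members stood lower in WT1 than the stronger promoters did. Their median difference was −0.02, with quartiles of −0.31 and 0.26, beside 0.13 over all regions tested and 0.43 over the promoters called in all 4. The rule asks for no peak in WT3, which shares its genotype with WT1, and the set called in all 4 asks for one. The choice of regions thus bears on this gap, which is no test of genotype. The median difference of the members was −0.25 without centring and −0.46 with centring on the promoters called in all 4. In 978 members (35.8%) WT1 lay above both KO libraries, beside 49.9% of all regions tested. In 1088 members (39.9%) it lay below both, beside 32.0%. These counts follow the centring, as do those of all regions. Without it WT1 lay above in 405 members (14.8%, beside 27.1% of all regions) and below in 1492 (54.7%, beside 44.3%). With centring on the promoters called in all 4 it lay above in 223 (8.17%, beside 16.1%) and below in 2121 (77.7%, beside 66.4%).

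In total, 13 members were higher in WT1 by limma and 34 were higher in KO1 and KO2. These are 0.476% and 1.25% of the members, beside 1.21% and 2.21% of all regions tested, so both shares lay below this background. With promoters alone in the fit, 12 members (0.44%) were higher in WT1 beside 1.68% of the 9615 promoters, and 33 (1.21%) were higher in KO1 and KO2 beside 0.354%, so that the second share then lay above the background. Among the promoters called in all 4, 165 were higher in WT1 and 1 in KO1 and KO2. Among the 15334 regions outside promoters with the same call pattern as the members, 79 were higher in WT1 and 685 in KO1 and KO2. These sets too were chosen by their WT3 calls, so their counts are no test of genotype. The split depends on the scaling, which moves every difference by the same amount. Without centring each difference falls by 0.23, and 0 members are called higher in WT1 (18 at an unadjusted p under 0.05) and 24 (0.879%) higher in KO1 and KO2, beside 0.0331% and 1.72% of all regions. With centring on the promoters called in all 4 each falls by 0.44, and 1 and 313 members are called. The 313 are 11.5% of the members, beside 11.4% of all regions.

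**Figure D2:**
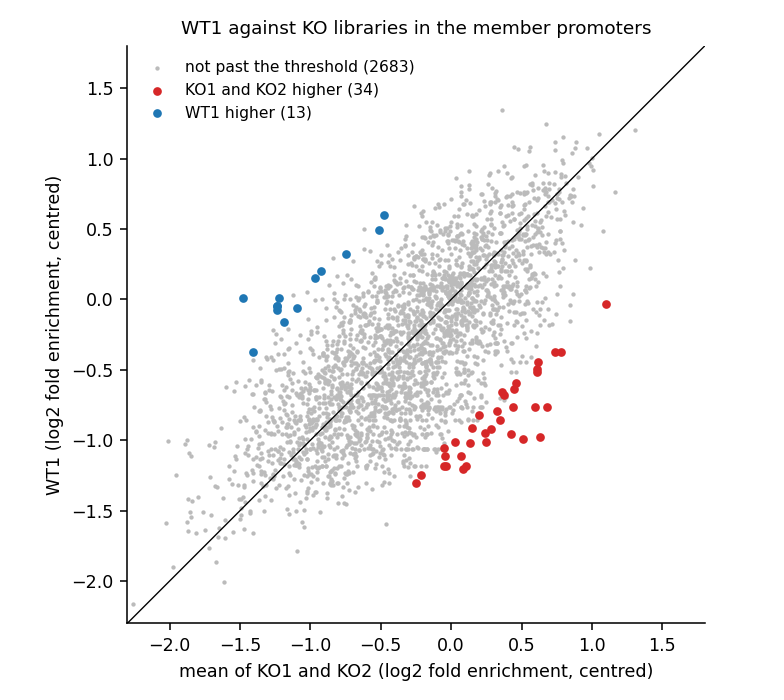
Each point is a member, with the mean of KO1 and KO2 on the horizontal and WT1 on the vertical axis, both as log2 fold enrichment centred on the library median, and the line marks equal values. The 34 members higher in KO1 and KO2 (red) lie below the line and the 13 higher in WT1 (blue) above it, while most members lie near it.

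The 8 members called higher in KO1 and KO2 by the largest margins were the promoters of Klhdc8b, Pcdh10, Olfr658, Pkib, Arhgef28, Faah, Lgi4 and Lyve1. Their WT1 pileups were low, from 11 extended reads at Faah to 18 at Klhdc8b. The lower quartile over the members was 22, and the lowest pileup of any WT1 peak was 8. Klhdc8b, at chr9:108452347-108453154 over the 5′ UTR exon, had a fold enrichment of 4.66 in WT1, 18.8 in KO1 and 14.7 in KO2. The difference was −1.61 ± 0.24 (SE, adjusted p = 0.0258 from limma). Pcdh10, a cell adhesion protein, had 4.60 in WT1, 18.9 in KO1 and 12.3 in KO2 at chr3:45378130-45378510, just upstream of the TSS, and differed by −1.50 ± 0.25 (adjusted p = 0.0259 from limma). WT1 lay well below both KO libraries in each. The nearest WT3 peak was 37366 bp from the Klhdc8b region and 2309248 bp from the Pcdh10 region, the longest gap of the members.

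Olfr658 (chr7:104646980-104647509, 5′ UTR exon) had a fold enrichment of 5.39 in WT1, 21.9 in KO1 and 13.5 in KO2. Pkib (chr10:57631859-57632292, 5′ UTR exon) had 4.71, 17.2 and 12 in the same order. Their differences were −1.45 ± 0.26 and −1.38 ± 0.25 (both adjusted p = 0.0282 from limma). Olfactory receptor genes are best known from sensory neurons, and a peak there says nothing of transcription. At chr13:98206223-98206755 Arhgef28, a guanine nucleotide exchange factor, had 5.39 in WT1, 20.6 in KO1 and 12.7 in KO2 before its TSS, with a difference of −1.36 ± 0.26. KO1 lay above KO2 in the fold enrichment of all of these promoters, as it did in the median of all members.

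Faah, whose product breaks down endocannabinoids, had a fold enrichment of 4.04 in WT1, 13.9 in KO1 and 9.65 in KO2 at chr4:116017473-116018031 in the 5′ UTR exon. Lgi4, a secreted protein of peripheral nerve, had 3.98, 12.8 and 10.0 at chr7:31059114-31059960, with its midpoint 398 bp upstream of the TSS. Their differences were −1.29 ± 0.25 and −1.28 ± 0.24, with adjusted p values of 0.0303 and 0.0297 from limma. Lyve1, the hyaluronan receptor of lymphatic endothelium and of some resident macrophages, had 4.55 in WT1, 13.3 in KO1 and 12.1 in KO2 at chr7:110862635-110863290, and differed by −1.26 ± 0.25 (adjusted p = 0.0327 from limma). WT1 lay below both KO libraries at each of these 3. The same 8 regions were also called on the pileup, with differences from −1.27 at Faah to −1.86 at Lgi4.

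**Figure D3:**
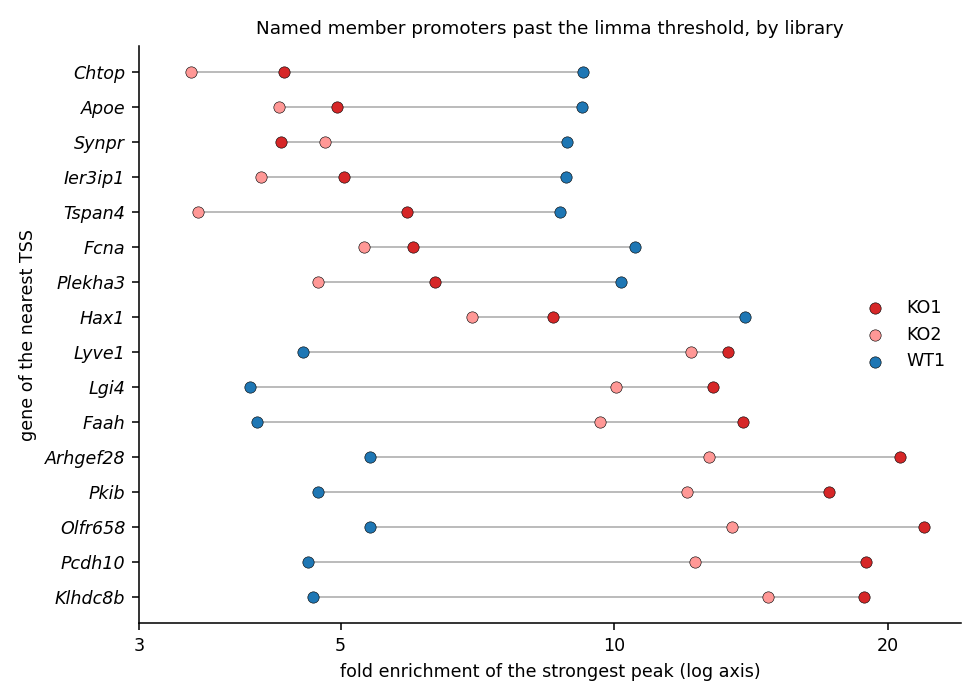
Points give the fold enrichment (log axis) of WT1 (blue), KO1 (red) and KO2 (pink) at the 8 members of largest change in each direction by limma, ordered by the difference. In the upper 8 rows WT1 lies above both KO libraries, as at Chtop (9.24 against 4.34 and 3.42), and in the lower 8 below both, as at Klhdc8b.

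The 8 members called higher in WT1 by the largest margins were the promoters of Chtop, Apoe, Synpr, Ier3ip1, Tspan4, Plekha3 and Hax1 and a region upstream of Fcna. Chtop had a fold enrichment of 9.24 in WT1, 4.34 in KO1 and 3.42 in KO2 at chr3:90509348-90509734, centred 43 bp before the TSS. The difference was 1.49 ± 0.24 (adjusted p = 0.0258 from limma), and Chtop was the member called higher in WT1 with centring on the promoters called in all 4. Apoe, the apolipoprotein through which macrophages pass on cholesterol, had 9.21, 4.96 and 4.27 at chr7:19698850-19699346, in the 5′ UTR exon, and differed by 1.23 ± 0.25 (adjusted p = 0.0329 from limma). WT1 lay above both KO libraries in both promoters.

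Synpr, at chr14:13284221-13284905 and centred 217 bp upstream of its TSS, reached 8.86 in WT1, 4.30 in KO1 and 4.81 in KO2. Its pileups were low in the KO libraries, at 27, 9 and 9 extended reads in the same order. Ier3ip1, a protein of the endoplasmic reticulum, had fold enrichments of 8.85, 5.05 and 4.09 in its 5′ UTR exon. Their differences were 1.19 ± 0.27 and 1.19 ± 0.24, with adjusted p values of 0.0419 and 0.0331 from limma. Tspan4 (chr7:141476247-141476577) had 8.71, 5.92 and 3.48 and differed by 1.17 ± 0.27. Its difference on the pileup was 0.47 and was not called (adjusted p = 0.446 from limma).

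Fcna, which encodes the lectin ficolin A of the complement system and is a known LPM gene, had 2 members that stood on opposite sides. The region at chr2:25628703-25629126, centred 941 bp upstream of the TSS, measured 10.5 in WT1, 6.00 in KO1 and 5.30 in KO2 and was higher in WT1 by 1.13 ± 0.25 (adjusted p = 0.0381 from limma). The region at chr2:25627735-25628414, centred 101 bp upstream, had 7.11, 15.1 and 8.59 and a difference of −0.45 (adjusted p = 0.296 from limma). On the pileup the difference of the upstream region was 0.80 and was not called (adjusted p = 0.157 from limma). Neither region carried a WT3 peak. That the 2 differed from each other was not tested.

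Plekha3, a lipid-binding protein of the Golgi, had a fold enrichment of 10.2 in WT1, 6.35 in KO1 and 4.72 in KO2 at chr2:76674996-76675447. Hax1, a mitochondrial survival factor of myeloid cells, had 13.9, 8.56 and 6.97 at chr3:89998536-89999161. Both lie just upstream of the TSS and differed by 1.12 ± 0.24 and 1.08 ± 0.24, with adjusted p values of 0.0379 and 0.0403 from limma. Golm1 and Pes1 had differences of 1.16 and 1.13 with WT1 above both KO libraries, and missed the threshold. On the pileup their differences were 0.91 and 1.34, and Pes1 was called there while Golm1 was not. Of the 13 members higher in WT1 and the 34 higher in KO1 and KO2, none lay within 1 kb of a WT3 peak.

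Gene groups showed unlike shares of promoters without a WT3 peak. The groups hold 675 of the members, were written with earlier results of these data known, and no test was run on them. Shares were lowest for housekeeping groups. Of the promoters called in WT1, KO1 and KO2, members made up 3 of 21 (14.3%) for peroxisome genes, 4 of 27 (14.8%) for mitochondrial import, 10 of 62 (16.1%) for cytosolic ribosomal proteins and 8 of 48 (16.7%) for lipid and cholesterol synthesis. For splicing and mRNA processing they were 30 of 157 (19.1%), and for ubiquitin ligases and deubiquitinases 44 of 233 (18.9%). The share over all promoters was 28.4%.

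Shares were highest for genes of immune response and of monocyte-derived cells. Members made up 9 of 20 promoters (45.0%) of monocyte-derived macrophage and dendritic genes, 8 of 18 (44.4%) of chemokines and their receptors and 26 of 60 (43.3%) of interferon-stimulated genes. Mitochondrial ribosomal proteins, a housekeeping group, had 21 of 57 (36.8%), and the proteasome had 16 of 44 (36.4%). Nuclear receptors and retinoid genes had 21 of 59 (35.6%), zinc-finger transcription factors 112 of 322 (34.8%) and solute carriers 59 of 171 (34.5%). Peritoneal macrophage identity genes, at 9 of 34 (26.5%), and innate immune receptors, at 14 of 53 (26.4%), stood close to the share over all promoters.

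**Figure D4:**
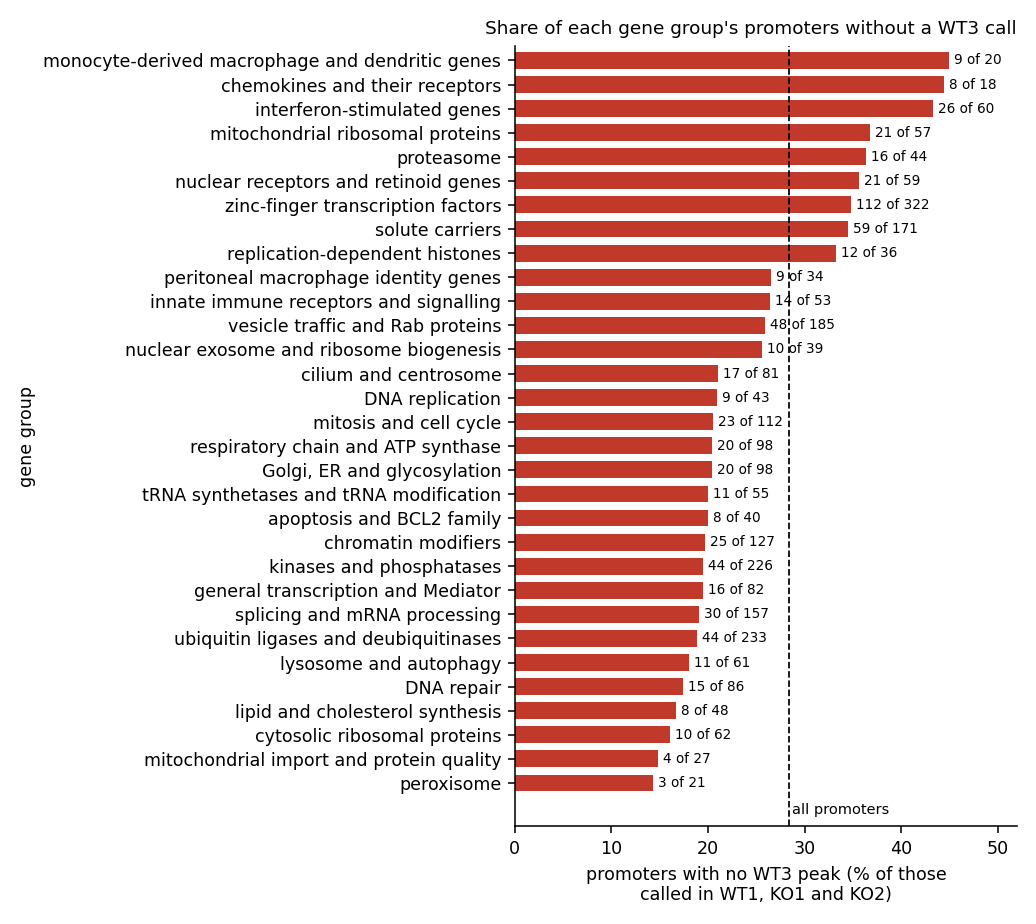
Bars give, for each of 31 gene groups, the percentage of promoters called in WT1, KO1 and KO2 that had no WT3 peak, with the counts beside each bar, and the dashed line gives the 28.4% over all such promoters. The shares run from 14.3% for peroxisome genes to 45.0% for monocyte-derived macrophage and dendritic genes.

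Within the groups, few members passed the limma threshold. Called shares were also low over all members and all regions tested, as given above. A call in a group, or the lack of one, is therefore not read as a trait of that group. In 24 of the 31 groups 0 members were called, although 82 of the 473 members of these groups had an unadjusted p under 0.05, beside 19.4% of all members and 26.7% of all regions tested. Among the interferon-stimulated genes, 0 of 26 members were called and 6 had an unadjusted p under 0.05, and their median difference was 0.01 beside 0.13 over all regions. Eif2ak2, the double-stranded RNA-activated kinase PKR, had a fold enrichment of 11.4 in WT1, 18.1 in KO1 and 16.2 in KO2. Gbp7, a guanylate-binding protein, had 14.2, 12.8 and 11.9, and Ifi35 had 12, 16.1 and 12.1. WT1 thus lay below both KO libraries at Eif2ak2, between them at Ifi35 on the centred scale and above both at Gbp7.

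Among the chemokines and their receptors, 1 of 8 members was called. The promoter of Cx3cl1, the ligand of the receptor CX3CR1, had a fold enrichment of 6.49 in WT1, 18.9 in KO1 and 14.2 in KO2 at chr8:94771914-94772334, and had a difference of −1.11 ± 0.24 (adjusted p = 0.0383 from limma). Cxcl12, the ligand of CXCR4, had 8.37, 11.3 and 7.30, and the scavenging receptor Ackr3 had 7.01, 10.7 and 8.12, and neither was called. Lyve1 was the 1 of 9 called among the monocyte-derived and dendritic genes. Flt3, the receptor of dendritic progenitors, had 9.51, 18.9 and 10.3, and the dendritic cell factor Batf3 had 9.33, 12.8 and 8.70. Cd74, the MHC class II invariant chain, had 6.15, 4.17 and 3.78 with a difference of 0.86 (adjusted p = 0.0684 from limma), and H2-Ab1 had 6.11, 6.93 and 6.86. Whether a different mix of sorted cells plays a part in these values was not tested.

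Among the 21 members of the nuclear receptor and retinoid group, 0 were called and 3 had an unadjusted p under 0.05, and their median difference was 0.03. Pparg, the fatty acid receptor that pairs with RXR, had a fold enrichment of 12.4 in WT1, 14.8 in KO1 and 10.4 in KO2 at a region centred 907 bp upstream of its TSS, and another Pparg promoter region was called in WT3. The retinol dehydrogenase Dhrs9 had 12.6, 16.8 and 10.2, and Rdh12 had 9.77, 17.7 and 12.5. WT1 lay below both KO libraries only at Rdh12 of these 3 after centring. The group also holds the receptors Nr1h3, Rarg, Rxrg, Vdr and Nr3c1 and the retinoic acid synthase Aldh1a2, named from the group's list.

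Of the 8 members from lipid and cholesterol synthesis, Apoe was called. Scd1, the stearoyl-CoA desaturase, had a fold enrichment of 6.01 in WT1, 14.1 in KO1 and 11.4 in KO2 and a difference of −0.85 that was not called (adjusted p = 0.0671 from limma). On the pileup it was −1.56 and was called (adjusted p = 0.00288 from limma). Apoe was thus higher in WT1, while WT1 lay below both KO libraries at Scd1.

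Of the 9 members from peritoneal macrophage identity genes, the distal Fcna region was called. Smpdl3b, a membrane-bound phosphodiesterase, had 9.92 in WT1, 12.4 in KO1 and 10.2 in KO2, and Laptm5, a lysosomal membrane protein, had 11.2, 9.69 and 6.66 at 583 bp from a WT3 peak. The LPM marker Selp had 4.52, 6.78 and 6.67. Of the 14 members from innate immune genes 0 were called, with 3 at an unadjusted p under 0.05. The NAIP inflammasome genes Naip6 and Naip5 had 14.7, 19 and 16.9 and 10.4, 17.7 and 16.0, and as near-identical paralogs their levels are uncertain.

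Among the groups of mitochondria and ribosomes, 1 member was called. Of 20 members from the respiratory chain and ATP synthase, Ndufs4, a subunit of complex I, was higher in KO1 and KO2 with fold enrichments of 3.70 in WT1, 9.06 in KO1 and 9.01 in KO2, and is named because it was called. Its pileup difference was −0.90 and was not called (adjusted p = 0.104 from limma). Cox7c, a subunit of cytochrome c oxidase, had 19.3, 21.9 and 17.7 and no WT3 peak within 756681 bp. Of 21 mitochondrial ribosomal proteins 0 were called, with Mrpl46 at 14.5, 18.1 and 16.0. Of 10 cytosolic ribosomal proteins 0 were called, with Rpl7l1 at 11.4, 16.6 and 13.5 and Rpl26 at 10.2, 11.2 and 9.33. Tomm7, of the outer membrane import pore, had 23.3, 18.7 and 10.2, the highest WT1 fold enrichment of the members, and a difference of 0.99 that was not called (adjusted p = 0.0646 from limma). On the pileup it was 1.55 and was called (adjusted p = 0.00323 from limma).

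Of the 112 zinc-finger members, Zfp975 was called higher in KO1 and KO2, and of the 44 kinases and phosphatases Csnk1e was called higher in WT1, both named because they were called. The pileup difference of Zfp975 was −0.99 and was not called (adjusted p = 0.0707 from limma). Csnk1e, a kinase of the circadian clock, had fold enrichments of 8.18 in WT1, 4.83 in KO1 and 4.62 in KO2, but a pileup difference of 0.31 that was not called (adjusted p = 0.633 from limma). Strong members of other groups included the proteasome subunits Psmd6 (13.5, 17.9 and 13.2) and Psmc1 (17.2, 14.3 and 9.57), the splicing factor Prpf3 (19.1, 22.3 and 14.4) and the mitotic cyclin Ccnb2 (15.1, 21.3 and 17.2), all as fold enrichment in WT1, KO1 and KO2. Ctse, an aspartic protease, had 11.6, 8.17 and 6.30 and a difference of 0.93 that was not called. On the pileup the difference of Ctse was 1.31 and was called.

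The sequence under the members lay between that of stronger and of weaker promoters. In 301 bp around the KO1 summit, 65.1% of the members were CpG-rich, with at least 50% G and C and a ratio of observed to expected CpG of at least 0.6. The shares were 84.2% for the promoters called in all 4 and 42.2% for the 1012 promoters called in KO1 and KO2 alone. The members were 556 bp wide at the median, against 737 and 393 bp. Their KO1 summit lay 30 bp upstream of the TSS at the median, with quartiles of −104 and 22 bp. Midpoints of 52.2% of the members lay upstream of the TSS, 34.1% in a 5′ UTR exon, 7.33% in a coding exon and 6.37% in an intron. Divergent promoters, with a second gene starting on the other strand, were 5.09% of the members and 10.6% of the promoters called in all 4.

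Motif letters were searched on both strands of the same window, and a match is a description of letters. The CCAAT box (CCAAT), bound by NF-Y, was in 26.6% of the members, 44.3% of the promoters called in all 4 and 26.1% of those called in KO1 and KO2 alone. The GC box of SP and KLF factors (GGGCGG) was in 58.9%, 76.1% and 43.7%. The ETS letters CCGGAAG were in 13.9%, 21.2% and 4.84%, the E-box (CACGTG) in 9.30%, 11.5% and 4.94%, and the NRF1 letters GCGCATGCG in 2.64%, 3.66% and 0.198%. All 5 were thus most frequent in the promoters called in all 4. Over all 32851 RefSeq promoter windows of 300 bases, the shares were 37.4% for CCAAT, 35.7% for GGGCGG, 8.86% for CCGGAAG, 7.15% for CACGTG and 1.75% for GCGCATGCG.

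Several of the other letters had their lowest share in the promoters called in all 4. The C/EBP letters TTGCNNAA were in 8.13% of the members, 6.67% of the promoters called in all 4 and 10.3% of those called in KO1 and KO2 alone. The AP-1 letters TGANTCA were in 5.57%, 4.43% and 7.51%, the GATA letters AGATAA in 4.91%, 3.20% and 7.31%, and the TATA letters TATAAA in 4.87%, 3.33% and 7.31%. The PU.1-type letters GAGGAAGT, which can overlap the ETS core, were in 4.62%, 3.78% and 4.35%. The YY1 letters AAGATGGC, in the order of the first group, were in 4.47%, 5.27% and 0.988%, and so were the CRE letters TGACGTCA, in 2.49%, 3.72% and 0.692%. The CTCF motif was in 1.39%, 1.00% and 2.96%. Of the spaced repeats bound by RXR heterodimers, the DR1 motif was in 5 members (0.183%), 0.102% of the promoters called in all 4 and 0.128% of all RefSeq windows. The DR5 motif was in 0 members, 0 promoters called in all 4 and 0 of those called in KO1 and KO2 alone. It was in 0.0304% of all RefSeq windows, too rare for its absence from the members to be read as a result. Over all RefSeq windows the shares were 10.8% for TTGCNNAA, 7.81% for TGANTCA, 11.2% for AGATAA, 13.6% for TATAAA and 3.20% for GAGGAAGT.

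**Figure D5:**
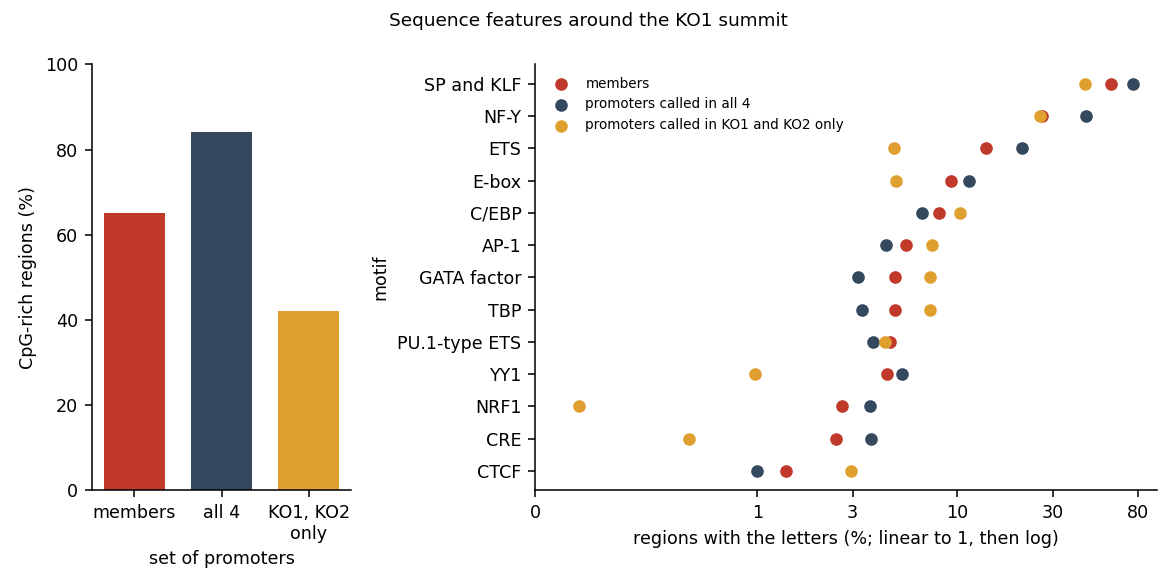
The left panel gives the percentage of CpG-rich regions among the members, the promoters called in all 4 and those called in KO1 and KO2 only, and the right panel the percentage of each set with a motif's letters (linear to 1%, then log). For the CpG share (65.1% against 84.2% and 42.2%) and for GC box and ETS letters the members lie between the other sets.

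Among the printed sequences, the CCAAT letters stand in Synpr, Pcdh10, Gm14325 and Lzts1, the C/EBP letters in Chtop and the E-box in Tspan4. Within the members, the 1778 CpG-rich promoters had a median WT1 minus KO difference of 0.03, and the 952 others −0.11. In fold enrichment the CpG-rich members had medians of 7.62 in WT1, 10.4 in KO1 and 7.81 in KO2, and the others 6.47, 9.45 and 7.68. Called higher in KO1 and KO2 were 18 of the CpG-rich members (1.01%) and 16 of the others (1.68%), beside 2.21% of all regions tested. Called higher in WT1 were 9 (0.506%) and 4 (0.42%), beside 1.21%. The promoters called in all 4 had medians of 0.45 when CpG-rich and 0.31 otherwise. At a WT1 pileup from 41 to 60, WT3 had a peak at 54.3% of the 954 CpG-rich promoters and at 43.8% of the 320 others. From 61 to 80 these shares were 83.6% and 72.9%. They were nearly equal from 31 to 40, at 22.3% and 22.2%, and above 120, at 99.7% and 99.8%. The gap was thus not seen at every pileup.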

How the data were processed

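ATAC-seq was measured in 4 libraries of sorted LPMs. The authors used cutadapt for trimming and Bowtie2 for alignment to mm10. They discarded duplicates, poorly mapped reads and those from mitochondria, X and Y, and ran MACS2 2.1.1 per library (extension of 200 bp, q value 0.05), after which blacklisted peaks were dropped. In the deposited lists each peak has the fold enrichment at the summit, a ratio to the local background, and the −log10 of the p and q values. The deposited integer score was not used, and the summit offset placed the summit. Read counts are not analysed here, so the authors' count test was not repeated. The methods state a read shift of 100 bp, and its sign decides where summits fall.

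Peaks sharing at least 1 bp were merged, and the strongest peak of a library stood for a region. The pileup was solved as a whole number from fold enrichment and p value, and was found for at least 99.997% of the peaks of each library. TSSs were those of 36208 NM transcripts of RefSeq GRCm38.p6 on chromosomes 1 to 19. Log2 fold enrichment entered limma 3.58.1 (R 4.3.3, lmFit and eBayes), adjusted over all 33263 regions called in WT1, KO1 and KO2. Region placement and motif search used Python 3.11.15 and pysam 0.24.0. The solving of the pileup, the limma fit and the motif search were tested on simulated data. The members and the gene lists were chosen with earlier results of these data known. Named members were the 8 strongest and 4 weakest by mean log2 fold enrichment, the 8 of largest difference in each direction with WT1 outside both KO libraries, up to 8 past the limma threshold in each direction, and the 3 strongest of each gene group, some of which are not reported here. Printed sequences were the first members in each order with at least 80 bases upstream of the TSS free of exons. Nothing in the labels says that replicates came from separate animals. WT1 was the only RXRabfl/fl library in the fit, so the SEs and p values rest on the moderated spread between KO1 and KO2. They hold no measure of how RXRabfl/fl libraries vary. The precision is limited by the number of libraries, and the depth as read counts is unknown.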

Additional observations from a re-analysis of the deposited data

How the results depend on the processing

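The number of members stayed between 2727 and 2962 under a stricter q value, summit-based merging, other promoter windows and the NM and NR TSSs. With an equal number of peaks per library it was 303. With 1 library left out of the rule it ran from 2763 to 9615, the latter without WT3, which turns the rule into all promoters called in WT1, KO1 and KO2. The median difference of −0.02 was −0.25 without centring and −0.46 with centring on the promoters called in all 4, and −0.0198 and −0.0223 without KO1 and without KO2. Members called higher in WT1 were 59 on the pileup (9 of the 13 among them, and 2.16% of members beside 7.89% of all regions), 0 without centring, where 11 of all regions were called, and 1 with centring on the promoters called in all 4. Members called higher in KO1 and KO2 were 134 on the pileup (28 of the 34 among them, and 4.91% of members beside 5.17% of all regions) and 313 with centring on the promoters called in all 4 (11.5% beside 11.4%). WT1 lay above both KO libraries in 405 members without centring and in 223 with centring on the promoters called in all 4, and below both in 2121 with the latter. A mean-variance trend, promoters alone in the fit and the adjusted p alone kept both limma counts within 1.5 times. Leaving out the 250 members within 1 kb of a WT3 peak, chosen after seeing the data, changed no count by over 1.5 times. With KO1 or KO2 left out no residual spread is left, so the limma counts could not be tested. No paired analysis was possible because the genotypes share 1 replicate number.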
